A study of Mus musculus with 2 samples.

Results

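The Shh-Lmbr1, Epha4-Pax3 and Kcnj2-Sox9 loci were examined for binding of CTCF, a zinc-finger protein found at many borders between chromatin domains. Peaks were taken as members when their centre lay in 1 of 3 windows on mm9: chromosome 5 from 28600000 to 29900000 (Shh-Lmbr1), chromosome 1 from 77000000 to 78500000 (Epha4-Pax3) and chromosome 11 from 110700000 to 113000000 (Kcnj2-Sox9). The windows span 1.3, 1.5 and 2.3 Mb. They held 61 of the 54151 peaks of mouse E14 embryonic stem cells (ESC), namely 20, 19 and 22, and 63 of the 51421 peaks of neural precursor cells (NPC), namely 18, 25 and 20.

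The ESC were E14Tg2A (IB10) cells kept undifferentiated with serum and leukemia inhibitory factor. The NPC were derived from E14 ESC and grown with N2 supplement, basic FGF and EGF. No genetic change is named for either sample, and both were precipitated with the same anti-CTCF antibody. Each cell type is 1 library, so no test between cell types was possible. The differences below are between these libraries, and all intervals are exact Clopper-Pearson 95% intervals over peaks, for counting error alone. Markers of either cell type cannot be read from peak lists, so the cell labels were not checked.

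Shh encodes a secreted signalling protein that patterns the limb and the neural tube. Its limb enhancer lies far away, inside an intron of Lmbr1. Epha4 encodes an ephrin receptor used in axon guidance and limb patterning, and its neighbour Pax3 encodes a transcription factor of neural crest and muscle precursors. Sox9 encodes a transcription factor of cartilage, gonad and glia, with enhancers spread over the long desert that separates it from Kcnj2, a potassium channel gene. Structural variants that remove or move the domain borders at Epha4 and at Kcnj2-Sox9 are known to join enhancers to the wrong gene in limb development. CTCF, with cohesin, is known to hold loops whose anchors sit at such borders.

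In the RefSeq gene table, of build GRCm38.p6, all 6 genes were found by symbol on the chromosome named in the rule. That table was used for gene order only, because it is not on mm9. Shh and Lmbr1 have 1 protein-coding gene, Rnf32, and 3 lncRNA genes between them. Epha4 and Pax3 have 0 protein-coding genes and 4 lncRNA genes between them. Kcnj2 and Sox9 have 1 gene annotated as protein-coding, Gm11677, and 5 lncRNA genes between them. Gene positions and sequence on mm9 were not used here, so peaks are given by position and were not assigned to a promoter, an intron or a known boundary, and the strand of CTCF motifs was not read.

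Each library had its own MACS peak list, and each peak carries a score that the authors deposited without a definition. Scores are therefore given as they stand and as a percentile of the peak's own list, where the highest peak is near 100. Over all peaks the median score was 517 for ESC and 385 for NPC. The lists give no read counts, so depth is unknown. The track name of both ends in CONTROL, a suffix with no explanation in the files, and the lists were taken as CTCF peaks because the labels say so. Peaks of the 2 lists that overlapped, by 1 bp or more, were called shared.

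All 3 windows held fewer peaks per Mb than the lists as a whole. The whole lists had 21.0 ESC and 20.0 NPC peaks per Mb between the outermost peaks of each chromosome. Shh-Lmbr1 had 15.4 ESC and 13.8 NPC peaks per Mb, where chromosome 5 had 26.8 and 23.6. Epha4-Pax3 had 12.7 and 16.7, where chromosome 1 had 18.3 and 17.4. Kcnj2-Sox9 was the sparsest of the 3, with 9.57 and 8.70 peaks per Mb, on a chromosome with 34.0 and 31.3. The peaks that were there did not score low. The median percentile of the members was 61.6 in ESC and 51.05 in NPC at Shh-Lmbr1, 60.7 and 61.4 at Epha4-Pax3, and 54.4 and 54.7 at Kcnj2-Sox9, against 50 in each list.

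**Figure D1:**
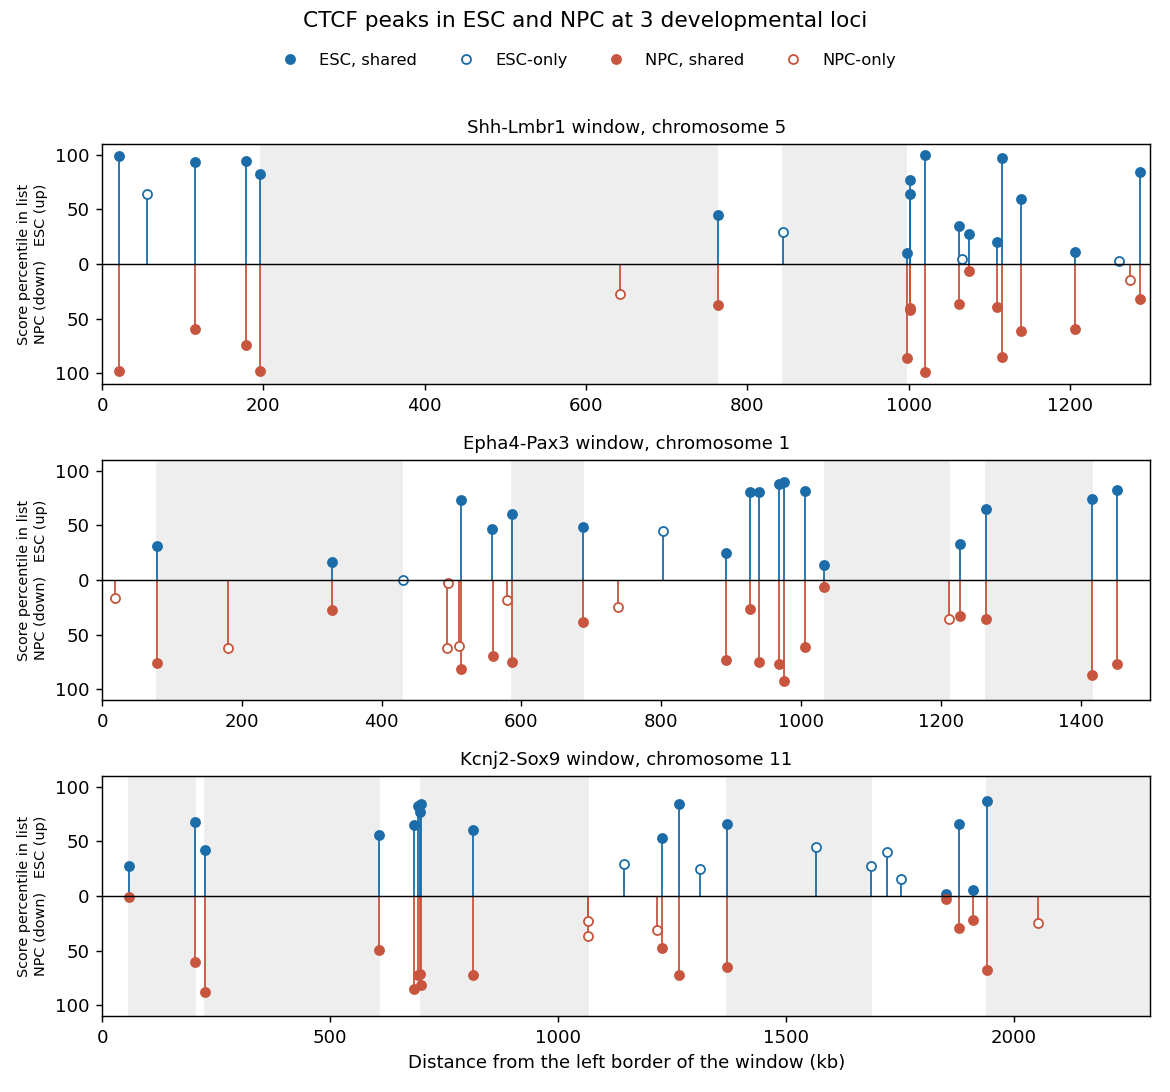
CTCF peaks of the 3 windows by distance from the left border of the window (kb), with ESC peaks drawn up and NPC peaks down to their score percentile within their own list. Filled points are shared peaks, open points are ESC-only or NPC-only peaks, and grey bands are stretches over 100 kb with no peak in either list and their midpoint in the window. The Shh-Lmbr1 window shows a 445 kb band, with a strong shared site at its left and a weak NPC-only peak at its right. Kcnj2-Sox9 shows a run of 4 open ESC points with no NPC peak below them.

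Most members had a partner in the other cell type. Of the 61 ESC members 12 had no NPC peak (19.7%, 10.6 to 31.8), and of the 63 NPC members 14 had no ESC peak (22.2%, 12.7 to 34.5). The background was 26.0% for ESC and 21.4% for NPC over the whole lists, so both shares lay near the background. By locus, 4 of 20 ESC peaks were unshared at Shh-Lmbr1 (20.0%, 5.73 to 43.7), 2 of 19 at Epha4-Pax3 (10.5%, 1.30 to 33.1) and 6 of 22 at Kcnj2-Sox9 (27.3%, 10.7 to 50.2). For NPC peaks the counts were 2 of 18 (11.1%, 1.38 to 34.7), 8 of 25 (32.0%, 14.9 to 53.5) and 4 of 20 (20.0%, 5.73 to 43.7). All 6 intervals included the share of its whole list. The Epha4-Pax3 window thus had 8 NPC-only against 2 ESC-only peaks and Kcnj2-Sox9 had 4 against 6, but neither share stood outside its counting error.

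Cell-type-only members were mostly weak, and their scores are given here beside those of the shared members. The 12 ESC-only members had a median score of 247 (101 to 788) and the 49 shared ESC members 809 (104 to 2898). The 14 NPC-only members had a median of 190 (106 to 567) and the 49 shared NPC members 617 (102 to 2439). The whole lists had the same order, with medians of 193 and 743 in ESC and 168 and 522 in NPC, so this is a general property of the lists. Among members above the median of their list, 1 of 33 was unshared in ESC and 3 of 33 in NPC, against 4.96% and 5.01% over all such peaks.

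At Shh-Lmbr1 the peaks fell into groups at both ends of the window with an almost empty middle. In ESC no peak lay between 28796845 and 29363051 on chromosome 5, a stretch of 566 kb, which was number 358 in length among the 54130 stretches between neighbouring ESC peaks. In NPC the stretch ran from 28796755 to 29241967, 445 kb, and was number 589 of 51401. The NPC stretch ended at 1 weak NPC-only peak at 29241968 to 29242259, which scored 197 (percentile 27.7) and lay 121 kb from the nearest ESC peak. A stretch of 445 kb, from 28796845 to 29241967, was free of peaks in both lists.

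When only peaks above the median score of their list were kept, the empty stretch was nearly the same in both cell types. It ran from 28796845 to 29601268 in ESC (804 kb) and from 28796755 to 29597432 in NPC (801 kb), with 801 kb in common. Inside it lay 3 weaker ESC peaks, with scores from 136 to 433, and 2 weaker NPC peaks, with scores from 197 to 264. The site at 29363052 to 29363644 was among them and was shared, with a score of 433 in ESC (percentile 44.6) and 264 in NPC (37.9). An ESC-only peak at 29443546 to 29443901 scored 253. It opened the second longest ESC stretch, which ran to 29597435 (154 kb). The second longest NPC stretch had no peak there and ran from 29363490 to 29597432 (234 kb).

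The strongest sites of Shh-Lmbr1 flanked this middle on both sides. The highest peak of the window in both lists was the shared site at 29619651 to 29620387, with a score of 2898 in ESC (percentile 99.5, rank 294 of 54151) and 2439 in NPC (98.7, rank 686 of 51421). The second highest ESC peak was at the other end, at 28620312 to 28621103, with a score of 2622 (99.1). Its NPC partner scored 2104 (97.6) and was the third highest NPC peak. The centres of these ESC peaks were 999 kb apart, with 9 ESC peaks between them. The second highest NPC peak was the shared site at 28796024 to 28796754, which borders the empty stretch. It scored 2245 in NPC (98.2) and 1219 in ESC (81.9). The third highest ESC peak, at 29715717 to 29716516, scored 1978 (96.6) and its NPC partner 1189 (85.4).

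Sites at the right end of Shh-Lmbr1 were crowded. Chaining sites of both lists at most 20 kb apart gave 5 clusters over the whole window. The first, at 28777595 to 28796844, lay left of the empty middle. The fullest cluster held 4 sites, all shared, from 29597433 to 29620387. Of these, 29601269 to 29601841 and 29601892 to 29602366 were only 50 bp apart in ESC and 196 bp in NPC. Whether they are 1 bound region was not tested. This cluster held the strongest site of the window and also the largest rank difference of any of the 49 pairs. At 29597433 to 29597888 the NPC peak scored 1217 (86.1) and the ESC peak 136 (10.0), a difference of 76.1 percentile points. Only 0.0859% of the 39595 pairs of the lists differed as much in that direction. The next site, at 29601269 to 29601841, differed the other way, with 1068 in ESC (76.4) and 286 in NPC (40.6). Neighbouring sites of 1 cluster thus ranked in opposite directions between these libraries.

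Cell-type-only peaks at Shh-Lmbr1 numbered 4 in ESC and 2 in NPC. The ESC-only peak at 28655834 to 28656512 was the only unshared ESC member of the 3 windows above its list's median, with a score of 788 (64.2), and the nearest NPC peak was 34.8 kb away. The other ESC-only peaks scored 253, 113 and 108. The NPC-only peak at 29875047 to 29875283 scored 143 and lay 11.7 kb from the nearest ESC peak.

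**Figure D2:**
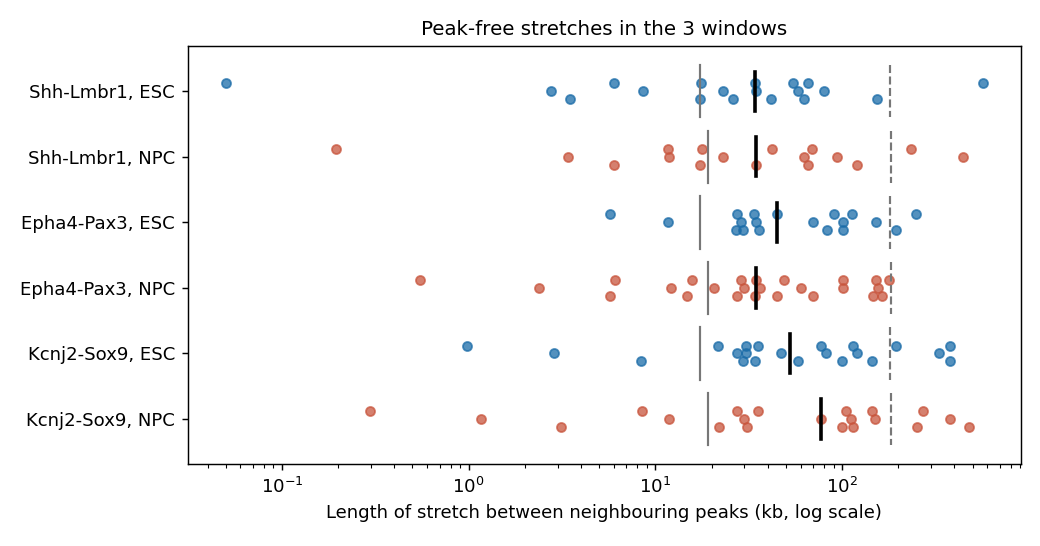
Length of every stretch between neighbouring peaks (kb, log axis) with its midpoint in a window, for ESC (blue) and NPC (red). Black bars are the medians of the window, solid grey lines the median of the whole list (17.3 kb in ESC, 19.1 kb in NPC) and dashed grey lines its 95th percentile (181 and 183 kb). All 6 window medians lie to the right of the solid grey line.

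Long stretches were more common at the other loci than at Shh-Lmbr1. The median stretch was 34.3 kb in ESC and 34.5 kb in NPC at Shh-Lmbr1, 44.9 and 34.6 kb at Epha4-Pax3, and 52.4 and 77.1 kb at Kcnj2-Sox9, compared with 17.3 and 19.1 kb in the whole lists. Stretches over 100 kb were 2 of 19 in ESC and 3 of 17 in NPC at Shh-Lmbr1, 6 of 19 and 7 of 25 at Epha4-Pax3, and 7 of 22 and 9 of 21 at Kcnj2-Sox9. In the whole lists 11.1% and 11.6% were that long. Counting also stretches over 100 kb that reach in from outside, each with its part inside the window only, they took up 55.4% (ESC) and 61.5% (NPC) of the Shh-Lmbr1 window, 65.9% and 67.9% of Epha4-Pax3, and 74.0% and 86.3% of Kcnj2-Sox9. In the whole lists they took up 56.9% and 57.3%. By this measure Shh-Lmbr1 was near the lists as a whole. Its longest stretch made up 566 of the 720 kb in such stretches in ESC, and 445 of 800 kb in NPC.

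At Epha4-Pax3 the strongest sites lay in the interior, in a run of shared sites. With sites chained within 50 kb, 7 sites from 77892785 to 78033695 on chromosome 1 formed 1 group of 141 kb, and all 7 were shared. It held the highest peak of the window in both lists, at 77975119 to 77975815, with a score of 1495 in ESC (percentile 89.6) and 1523 in NPC (92.2). The second highest ESC peak, at 77968769 to 77969422, lay 6.37 kb from it by centre and scored 1399 (87.3), against 915 in NPC (77.3). No peak of this window reached the upper ranks seen at Shh-Lmbr1, where the highest peaks stood above percentile 98 in both lists.

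The other leading peaks of Epha4-Pax3 were at its right border and on the left of the run. The third highest ESC peak was at 78451144 to 78451682 (score 1222, percentile 82.0, with 898 and 76.7 in NPC). The second highest NPC peak was at 78416048 to 78416662 (1242, percentile 86.7, with 1014 and 74.3 in ESC). The third highest NPC peak was at 77512828 to 77513381 (1032, percentile 81.1, with 990 and 73.3 in ESC). Just outside the window, 22.0 kb past its right border, stood a stronger shared site that is no member, with an ESC peak of score 3100 (99.7) and an NPC peak of 1589 (93.2).

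Empty stretches at Epha4-Pax3 were shorter and more numerous. The longest in ESC ran from 77078726 to 77328302 (250 kb, number 1638 of 54130), and it held 1 NPC peak. That NPC-only peak, at 77180543 to 77180971, scored 567 (percentile 62.05) and was 102 kb from the nearest ESC peak. The second in ESC, from 78033696 to 78227381 (194 kb), largely coincided with the longest in NPC, from 78033600 to 78212193 (179 kb, number 2677 of 51401). In NPC it ended at an NPC-only peak at 78212194 to 78212588, with a score of 248. In common, 178 kb were free of peaks in both lists (78033696 to 78212193). The second longest in NPC, from 77328694 to 77493045 (164 kb), held 1 ESC peak, at 77429722 to 77430023, whose score of 101 was near the lowest in the list.

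Unlike at the Shh-Lmbr1 middle, a different stretch without above-median peaks was the longest in each list here. It ran from 77586529 to 77927147 in ESC (341 kb) and from 78005750 to 78416047 in NPC (410 kb), and the stretches did not overlap. In NPC the site at 77892785 to 77893295 scored 811 (percentile 73.3) and broke the first, whereas its ESC partner scored 217 (24.5). The ESC peak at 78263911 to 78264609 scored 801 (64.9) and broke the second, whereas its NPC partner scored 246 (35.3). Most of each stretch still lacked above-median peaks in the other list. NPC had none between its peaks at 77585950 to 77586435 and 77892785 to 77893295. ESC had none between its peaks at 78005214 to 78005882 and 78263911 to 78264609.

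Of the 8 NPC-only peaks at Epha4-Pax3, 7 lay left of 77750000, the middle of the window. The 3 above the NPC median were the peak at 77180543 and peaks at 77493046 to 77493570 (score 564, percentile 61.9) and 77510092 to 77510431 (534, percentile 60.1). The last lay 2.28 kb from an ESC peak and the one before it 19.1 kb. Both belonged to the fullest cluster of the window within 20 kb, 4 sites from 77493046 to 77513415, of which 1 was shared and 3 were NPC-only. The other 5 NPC-only peaks scored 106 to 248. The 2 ESC-only peaks scored 101 and 439, the second at 77801654 to 77802121, and neither was above the ESC median.

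Kcnj2-Sox9 was the emptiest window, and its longest stretches differed between the lists. The longest ESC stretch ran from 110926473 to 111307007 on chromosome 11 (381 kb, number 810 of 54130). The same stretch, from 110926396 to 111307018 in NPC (381 kb, number 776 of 51401), was the second longest there, and no peak of either list lay inside it. It opened at the shared site at 110925946 to 110926395, the highest NPC peak of the window (score 1272, percentile 87.5), whose ESC partner scored 399 (42.0). It closed at the shared site at 111307008 to 111307567, with a score of 618 in ESC (55.8) and 375 in NPC (49.1).

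The longest NPC stretch lay farther right, from 112071101 to 112552135 (481 kb, number 510 of 51401), and ESC had 4 peaks inside it. All 4 were ESC-only, and the strongest, at 112266187 to 112266699, scored 432 (percentile 44.5) and was 195 kb from the nearest NPC peak. The next strongest, at 112420982 to 112421456, scored 369 (39.8) and was 131 kb away. The others scored 240 and 162. None of the 4 was above the ESC median, and without the weaker 50% of each list this stretch was empty in both, over a common 509 kb from 112071275 to 112579826.

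The second longest ESC stretch of Kcnj2-Sox9 ran past the right border of the window, from 112641798 to 113019193 (377 kb, number 819). It held 1 NPC-only peak, at 112753809 to 112754196, with a score of 183 (24.7). It opened at the highest ESC peak of the window, at 112640932 to 112641797, which scored 1397 (87.3) against 690 in NPC (68.2). The last ESC peak of the window was thus centred 359 kb before its right border, and the last NPC peak 246 kb before it. The first peaks past the border were an ESC peak with a score of 334 at 19.5 kb and an NPC peak with a score of 877 at 26.7 kb.

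In the left part of the Kcnj2-Sox9 window stood a tight group of shared sites. Its fullest cluster held 4 sites within 14.9 kb, from 111384598 to 111399474, all shared. Their ESC scores were 809, 1229, 1085 and 1273, from left to right, and their NPC scores 1171, 781, 752 and 1047. In NPC only the peak at the left border of the long stretch scored higher than the first of them, and the last came next. In ESC the last was the third highest peak of the window, after the site at 112640932 and a site at 111964399 to 111965167 (1301, percentile 84.5, with 796 and 72.7 in NPC). The 4 sites ranked above percentile 65 in ESC and above percentile 70 in NPC. At 111765381 to 111766371 a pair of NPC-only peaks, with scores of 253 and 172, lay within 1 kb of each other.

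**Figure D3:**
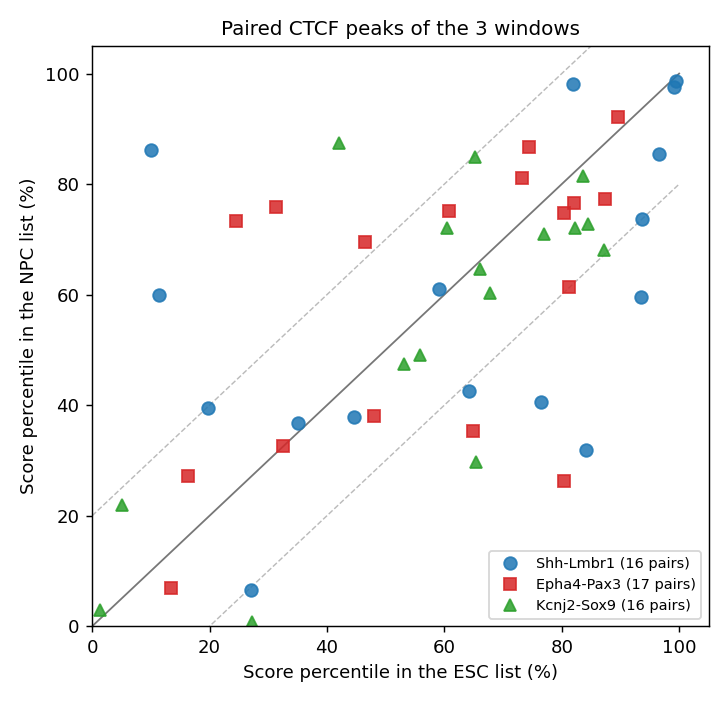
Score percentile in the ESC list against that in the NPC list for the 49 pairs of overlapping peaks, with 1 marker shape per window. The solid line marks equal percentiles and the dashed lines differences of 20 points, and most Kcnj2-Sox9 pairs lie between the dashed lines while Shh-Lmbr1 pairs spread farther.

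The 49 shared sites matched 1-to-1, and taken over all 3 windows their rank differences were close to those of the lists. The NPC minus ESC percentile had a median of -5.34 over the 49 pairs and a standard deviation over pairs of 25.4, compared with -1.18 and 24.0 over all 39595 pairs. NPC ranked more than 20 points higher at 6 pairs (12.2%, against 16.3% of all pairs) and more than 20 points lower at 10 (20.4%, against 21.2%). By locus the median difference was -4.06 at Shh-Lmbr1 (standard deviation 32.0, 16 pairs), 0.031 at Epha4-Pax3 (24.9, 17 pairs) and -5.91 at Kcnj2-Sox9 (19.2, 16 pairs). At Shh-Lmbr1 NPC ranked more than 20 points lower at 6 of 16 pairs (37.5%) and more than 20 points higher at 2. The counts were 2 lower and 3 higher of 17 at Epha4-Pax3, and 2 lower and 1 higher of 16 at Kcnj2-Sox9.

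Single sites differed more. Beside the pair at 29597433 on chromosome 5, NPC ranked higher at 77892785 to 77893295 on chromosome 1 (by 48.8 points), at 29805739 to 29806283 on chromosome 5 (48.5), at 110925946 to 110926395 on chromosome 11 (45.4) and at 77078156 to 77078773 on chromosome 1 (44.7). ESC ranked higher most clearly at 77927148 to 77927786 on chromosome 1, with a score of 1170 (80.3) against 190 in NPC (26.2), a difference of -54.1 points. At 29886981 to 29887746 on chromosome 5 the ESC peak scored 1288 (84.2) and the NPC peak 223 (31.9), a difference of -52.3 points. Of all pairs 1.89% and 2.27% were as low. These sites were picked for their differences, and with 1 library per cell type the spread between cultures at them is unknown.

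Paired peaks lay close together. The centres of the 49 pairs were a median of 33.0 bp apart and at most 122 bp, against a median of 32 bp over all pairs. The ESC peak was the wider of the pair at 41 of 49 sites (83.7%), compared with 87.4% over all pairs. Members were 302 to 866 bp wide in ESC and 237 to 731 bp in NPC.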

How the data were processed

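Peak lists of CTCF ChIP-seq from 2 mouse samples, 1 per cell type, were used. Libraries were sequenced on SOLiD, per the labels' protocols. Peaks were called with MACS for each library, per the file headers. The submitters' processing notes name mm9. MACS version, threshold, control and aligner: not given in the sources used here. Every peak has a single value, the score the authors deposited, whose definition is not stated. Starts were shifted to count from 1.

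Members were peaks with their centre in 1 of 3 windows. The windows, lists and tests were chosen with earlier results of these data known. A stretch was assigned by its midpoint and ran to the nearest peaks, even outside the window. Pairs were peaks with exactly 1 partner each. Named peaks were, per window and list, the 3 with the highest score, those at the ends of the 2 longest stretches, cell-type-only peaks above the list's median score, the highest cell-type-only peak and the fullest cluster. Others named, such as those with the largest rank differences, were chosen after their values were seen. The overlap step was tested with a random subset of the ESC list, with positions shifted. The stretch step was tested with a block of ESC peaks removed. Alternatives covered the overlap rule, the score limit, the window borders and the chaining distance. Python 3.11.15, numpy 2.4.6, pandas 2.3.3, scipy 1.17.1 and matplotlib 3.10.9 were used. Motifs were not searched.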

Additional observations from a re-analysis of the deposited data

How the results depend on the processing

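Under 50% reciprocal overlap the shared percentage fell from 72.7 to 63.6% (ESC) and from 80 to 70% (NPC) at Kcnj2-Sox9. At Epha4-Pax3 it fell from 89.5 to 84.2% (ESC) and from 68 to 64% (NPC), and at Shh-Lmbr1 it did not change. With centres within 100 bp only Epha4-Pax3 changed, to the same values, and with peaks within 1 kb no locus changed. All 6 stayed inside their intervals, but these are wide and cannot show that the overlap rule matters little. Among peaks in the upper 50% by score, 100% were shared for NPC at Shh-Lmbr1, ESC at Epha4-Pax3 and both lists at Kcnj2-Sox9, 90.9% for ESC at Shh-Lmbr1 and 78.6% for NPC at Epha4-Pax3 (3 of 14 unshared). Over all such peaks 4.96% of ESC and 5.01% of NPC were unshared. Densities with the upper 50% were 8.46 (ESC) and 6.92 (NPC) peaks per Mb at Shh-Lmbr1, 6.67 and 9.33 at Epha4-Pax3, and 5.22 and 4.35 at Kcnj2-Sox9, by construction of that setting, and windows widened by 100 kb kept all 6 within 1.5 times. The longest NPC stretch with the upper 50% was 801 kb at Shh-Lmbr1 and 410 kb at Epha4-Pax3. Other longest stretches, and those free of peaks in both lists, stayed within 1.5 times. Clusters numbered 3 at Shh-Lmbr1 within 10 kb and 6 at Kcnj2-Sox9 within 50 kb. With 50% reciprocal overlap the median rank differences were -4.06 at Shh-Lmbr1, 1.34 at Epha4-Pax3 and -3.95 at Kcnj2-Sox9. The comparisons of motif and orientation were not run. Depth is unknown, so an absent peak may be a site under the calling limit, and the length of a peak-free stretch rests on that limit. No paired analysis was possible because each cell type has 1 library, and no library could be left out.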
